A study of Gallus gallus with 10 samples.

Results

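Translation initiation and elongation factors are the proteins that assemble a ribosome on a messenger RNA and drive it along the message. Their transcripts were compared between the retinas of the 2 eyes of chicken embryos, of which 1 eye had lost its lens. The group was chosen by gene symbol, as every row whose symbol starts with EIF1 to EIF6 or with EEF, leaving out the eIF2 kinases (EIF2AK). It holds 52 of the 12464 genes in the table: 3 of class EIF1, 5 of EIF2, 5 of EIF2B, 11 of EIF3, 13 of EIF4, 4 of EIF5 and EIF6, 7 of EEF1 and 4 of EEF2 and other elongation factors. EIF3C, EIF3K, EIF4A1 and EIF5A were not analysed here.

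The lens-removed group is 5 retinas of wild-type Dekalb white embryos, each from the eye whose lens was pulled out with forceps through a slit in its dorsal wall at Hamburger and Hamilton stage 23, about embryonic day 4. The control group is the 5 retinas of the opposite eyes of the same embryos, which were not operated on. The labels call the tissue optic cup and its dissected part the retina. All 10 were collected singly 6 h after surgery and give 1 library of polyadenylated RNA each, so that every embryo is a pair and n = 5 in each group. The control eyes were not opened, so the loss of the lens and the wound cannot be told apart, and the embryos' sex is not given in the labels. The series asks which genes under the influence of the lens act in the size of the eye and the making of its front part.

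Values are the authors' normalised read counts, which are scaled for the depth of a library but not for the length of a gene, so levels are compared between libraries and not between genes. Library totals in the table were 979286 to 1033235. If the spacing of low values stands for 1 read and the libraries share a common scale near these totals, they held about 18700000 to 26000000 reads. A value of 10 would then rest on 187 to 260.1 reads. A gene was tested if its mean over the 10 libraries was at least 10, which 51 of the 52 factors reached. Log2 changes are lens-removed minus control on the log2(value + 1) scale, estimated within embryos by limma, and a gene is called at a Benjamini-Hochberg adjusted p under 0.05 over all 9076 genes tested. In whole retinas, fewer cells of a type and less RNA per cell cannot be told apart.

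In textbook outline, eIF2 carries the initiator methionyl-tRNA with GTP to the small ribosomal subunit, and eIF2B reloads eIF2 with GTP after each round. eIF3 is the large scaffold on the small subunit, while the eIF4 factors bind the cap of the message and unwind its leader. The eEF1 factors then bring each aminoacyl-tRNA and eEF2 moves the ribosome on by a codon. Cells under stress phosphorylate the alpha subunit of eIF2, which turns eIF2 from a substrate into an inhibitor of eIF2B. Growing embryonic tissue needs these factors in quantity, and several of them are translated in step with growth signals.

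In the operated retinas, transcripts of 2 of the 3 eIF2 subunits and of 4 of the 5 subunits of its exchange factor eIF2B were lower at 6 h. Of the eIF3 genes 10 of 11 and of the eEF1 genes 6 of 6 did not pass the test, and EEF2 was higher. Of all 9076 genes tested 7001 did not pass. Of the 51 factors tested, 14 fell (27.5%), 2 rose and 35 did not pass; of all genes tested 12.3% were called lower and 10.6% higher. The factors are mostly abundant, and among the 43 with a mean of at least 50, 13 were lower and 1 higher, against 16.9% lower and 8.7% higher of all genes at that level. The changes were small: none of the 51 reached 1.5-fold, and they ran from -0.45 (EIF3J) to 0.45 (EEF2) on the log2 scale. The median log2 change was -0.097 over the factors, -0.0013 over all genes tested and -0.033 over those with a mean of at least 50. Every lens-removed library lay below every control library for 13 factors and above for 1, where 7.27% and 6.41% of all genes tested did so (10.4% and 5.52% of those with a mean of at least 50). A lower value in 5 of 5 embryos was seen for 16 factors and a higher one for 2, against 17.2% and 14.7% of all genes tested (22.5% and 12% of those with a mean of at least 50).

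The counts depended on single embryos. Without embryo 2 only 6 factors were lower and without embryo 4 only 5, when 4.15% and 3.32% of all genes were called lower. Without embryo 1 there were 20 lower and 3 higher, when 16.2% of all genes were called lower and 15.2% higher. The 5 factors EIF2S1, EIF2S2, EIF2A, EIF2B5 and EIF3J were called lower in the main fit and under all 13 alternatives. They are the same 5 that were called lower without embryo 4, when 3.32% of all genes were. The share of all genes called lower in every fit is not given here.

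**Figure D1:**
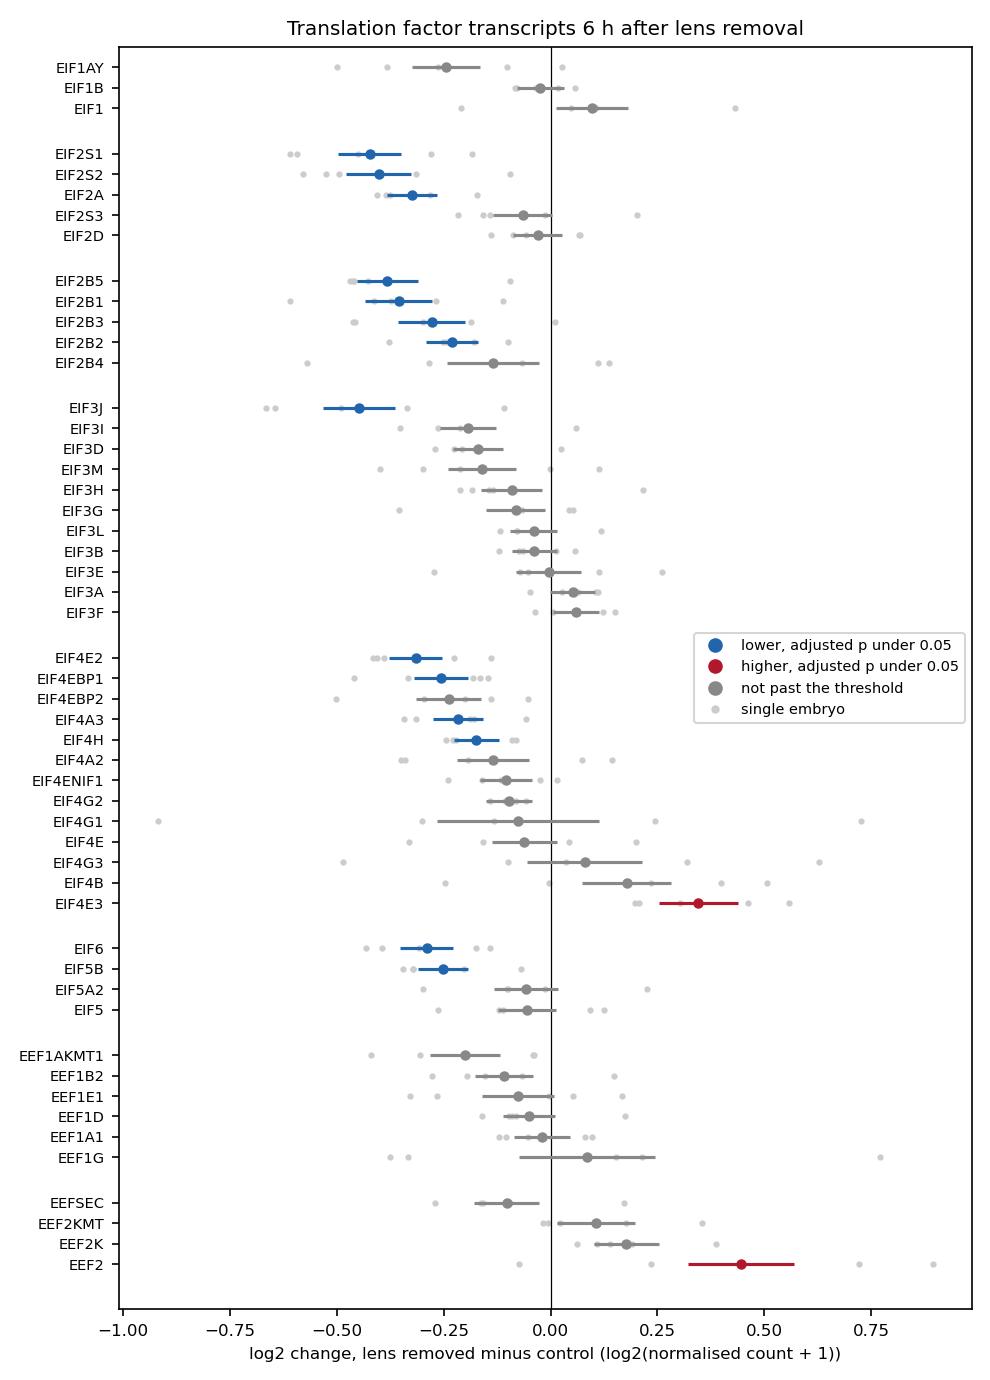
Log2 change (lens removed minus control) of the 51 tested factors, grouped by class from EIF1 at the top to EEF2 at the bottom. Large points are limma estimates with SE bars, blue where lower, red where higher and grey where the test was not passed, and small points are the 5 embryos; 14 factors are blue and 2 are red.

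Both the alpha and the beta subunit of eIF2 fell. EIF2S1 encodes the alpha subunit, the one that stress kinases phosphorylate. Its normalised read counts were 239.8, 224, 224, 206 and 209 in the lens-removed retinas of embryos 1 to 5, against 272, 307, 339, 314 and 254 in their control retinas. The 2 groups did not overlap, and all 5 embryos were lower on the operated side (log2 change -0.42, SE 0.074, adjusted p = 0.0056). EIF2S2, the beta subunit gene, had 369.8, 316, 322, 289 and 317 in the lens-removed retinas of embryos 1 to 5, against 395, 446, 481, 417 and 395 in their control retinas. It too was lower in every embryo with no overlap (log2 change -0.40, SE 0.076, adjusted p = 0.0076). The gamma subunit gene EIF2S3, whose product binds the GTP and the initiator tRNA, did not pass: it stood at 486 ± 45.5 in lens-removed and 508 ± 45.0 in control retinas (log2 change -0.065, adjusted p = 0.52), and was lower in 4 of 5 embryos. Whether the gamma gene differed from the other subunits was not tested.

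The other 2 genes of this class share the name but are single-chain factors outside the trimer. EIF2A, which can place initiator tRNA at unusual start sites, had 96.2, 86.0, 94.4, 88.8 and 85.2 in the lens-removed retinas of embryos 1 to 5, against 108, 113, 123, 118 and 104 in their control retinas. All lens-removed values lay below all control values (log2 change -0.32, SE 0.059, adjusted p = 0.0065). EIF2D, which acts in recycling and reinitiation, stood at 126 ± 9.12 in lens-removed and 129 ± 16.0 in control retinas (log2 change -0.030, adjusted p = 0.73). In class EIF2, 3 of 5 were thus lower, with a median log2 change of -0.32, and these 3 calls held when any 1 embryo was left out. Of all genes tested 12.3% were called lower, and 16.9% of those with a mean of at least 50.

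**Figure D2:**
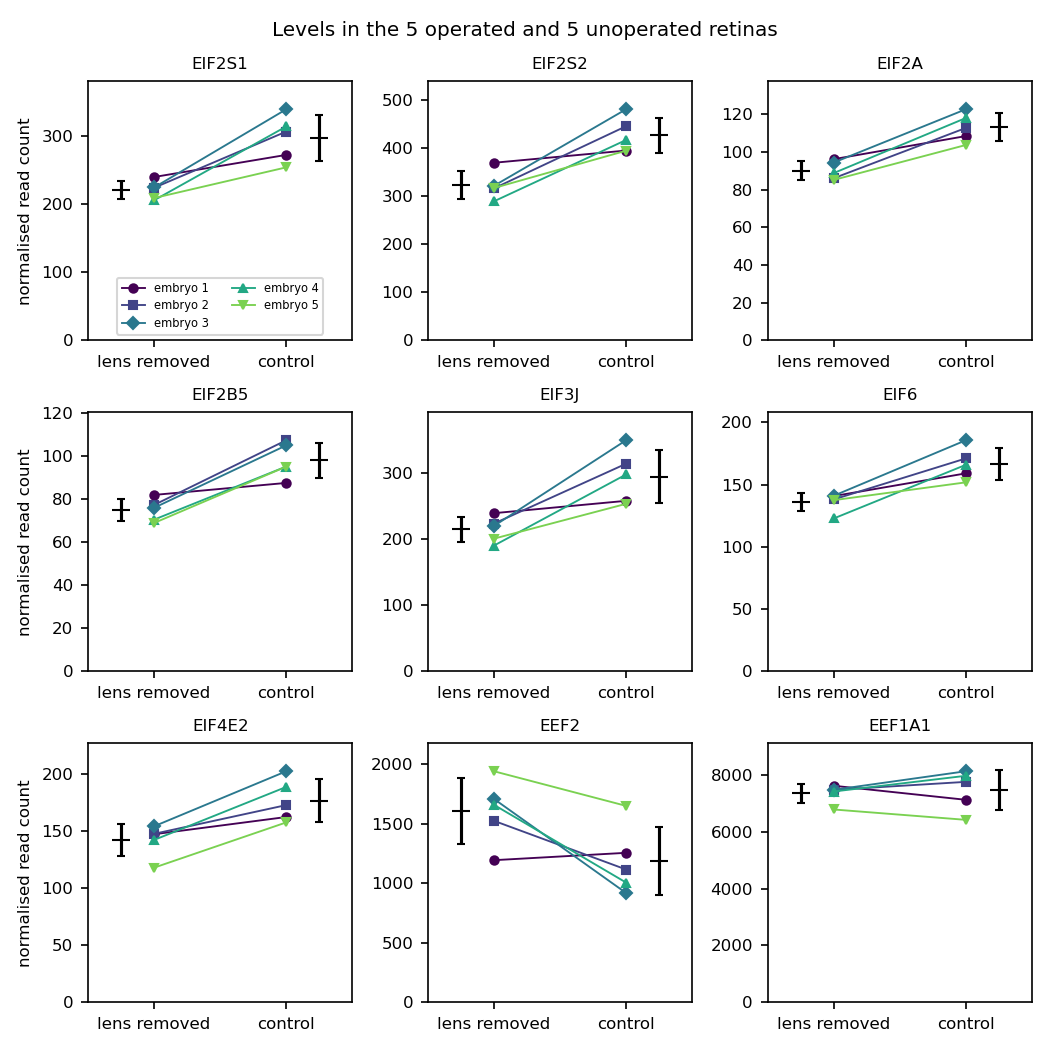
Normalised read counts of 9 factors in the lens-removed (left) and control (right) retina of each embryo, joined by a line, with mean ± SD beside each group. EIF2S1, EIF2S2, EIF2A, EIF2B5, EIF3J, EIF6 and EIF4E2 are lower on the operated side in 5 of 5 embryos, EEF2 is higher in 4 of 5, and EEF1A1 is higher in embryos 1 and 5 and lower in the other 3.

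Of the 5 eIF2B subunits, 4 fell and 1 did not pass. EIF2B5 encodes the epsilon subunit, which holds the catalytic domain for nucleotide exchange. Its values were 82.1, 77.4, 76.1, 70.6 and 69.0 in the lens-removed retinas of embryos 1 to 5, against 87.7, 108, 105, 95.3 and 95.3 in their control retinas. The operated retinas were below every control, by least in embryo 1 (log2 change -0.38, SE 0.071, adjusted p = 0.0071). EIF2B1, the alpha subunit gene, had 49.6, 42.8, 44.9, 39.8 and 39.6 in the lens-removed retinas of embryos 1 to 5, against 53.7, 57.2, 58.4, 61.3 and 47.9 in their control retinas. It was lower in every embryo, although the operated retina of embryo 1 lay above the control of embryo 5 (log2 change -0.35, SE 0.079, adjusted p = 0.014).

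EIF2B2, the beta subunit gene, had 68.3, 75.9, 76.7, 66.2 and 72.3 in the lens-removed retinas of embryos 1 to 5, against 81.2, 81.5, 86.9, 86.3 and 86.2 in their control retinas. The groups did not overlap, and the controls spread by only 3.34% (coefficient of variation; log2 change -0.23, SE 0.061, adjusted p = 0.027). EIF2B3, which encodes the gamma subunit and partner of epsilon, had 86.5, 80.4, 76.5, 68.4 and 70.6 in the lens-removed retinas of embryos 1 to 5, against 85.9, 99.0, 105, 94.5 and 80.5 in their control retinas. Embryo 1 was level on its 2 sides and the other 4 embryos were lower, and the groups overlapped (log2 change -0.28, SE 0.079, adjusted p = 0.035; adjusted p = 0.052 with no replicate block). EIF2B4, the delta subunit gene, has the lowest values of the class and varied most, at 26.6 ± 4.05 in lens-removed and 29.7 ± 7.01 in control retinas. It was higher in embryos 2 and 3 and lower in the other 3 (log2 change -0.13, adjusted p = 0.39).

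The median log2 change of class EIF2B was -0.28. The share lower was 80%, against 12.3% of all genes tested and 16.9% of those with a mean of at least 50. Without embryo 2, 3, 4 or 5 fewer EIF2B genes were called: only EIF2B5 without embryo 2 or 4, EIF2B5 with EIF2B1 and EIF2B2 without embryo 3, and EIF2B5 with EIF2B1 without embryo 5. The share of all genes called lower was 4.15%, 8.20%, 3.32% and 9.17% without embryo 2, 3, 4 and 5.

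Factors that scan for the start codon did not pass the test. EIF1AY, a symbol that the RefSeq table of build GRCg7b lists as a synonym of EIF1AX, encodes eIF1A, which sits in the decoding site during scanning. Its values were 308, 285, 274, 292 and 313 in the lens-removed retinas of embryos 1 to 5, against 331, 372, 389, 351 and 308 in their control retinas. It was lower in 4 of 5 embryos with overlapping groups, just short of the threshold (log2 change -0.24, SE 0.079, adjusted p = 0.054), and was called lower with no replicate block (adjusted p = 0.035), with trimmed mean rescaling (0.0499) and without embryo 1 (0.037) or 5 (0.031). EIF1, a guard of start codon choice, stood at 155 ± 25.4 in lens-removed and 145 ± 26.8 in control retinas (log2 change 0.096, adjusted p = 0.43), and its close paralogue EIF1B at 83.5 ± 3.99 in lens-removed and 84.8 ± 1.79 in control retinas (log2 change -0.024, adjusted p = 0.77). Of the 51 factors EIF1B had the smallest coefficient of variation over the controls, which ran from 82.2 to 87.0.

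eIF3 is the largest initiation complex. Of all genes tested 12.3% were called lower, and 16.9% of those with a mean of at least 50. Of the 11 tested eIF3 genes 1 fell, 0 rose and 10 did not pass. That 1 gene was EIF3J, whose product binds loosely to the complex and to the mRNA channel of the small subunit. EIF3J had 239, 223, 219.7, 190.0 and 201 in the lens-removed retinas of embryos 1 to 5, against 258, 314, 349, 298 and 253 in their control retinas. It was lower in every embryo without overlap, and its log2 change is the most negative of all 51 factors (log2 change -0.45, SE 0.084, adjusted p = 0.0075). EIF3A, EIF3B, EIF3I and EIF3G were closer to their controls. EIF3A stood at 947 ± 30.6 in lens-removed and 914 ± 48.6 in control retinas (log2 change 0.052, adjusted p = 0.50), and EIF3B at 485 ± 18.0 in lens-removed and 498 ± 14.0 in control retinas (log2 change -0.038, adjusted p = 0.63). EIF3I and EIF3G, whose products bind EIF3B, had log2 changes of -0.19 (adjusted p = 0.064) and -0.082 (adjusted p = 0.41).

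The other eIF3 genes did not pass either. EIF3D, which can bind the cap of some messages, had a log2 change of -0.17 (adjusted p = 0.067), and EIF3M one of -0.16 (adjusted p = 0.17). The log2 changes of EIF3H, EIF3L, EIF3E and EIF3F were -0.091, -0.040, -0.0045 and 0.059, with adjusted p from 0.37 to 0.98. The class median was -0.082. Embryo 1 went the other way from the rest, with 9 of the 11 genes higher on the operated side, while in embryos 2, 3 and 5 8 were lower and in embryo 4 10. Without embryo 1, EIF3D, EIF3H, EIF3I and EIF3M were also called lower, which makes 5 of 11. In that fit 16.2% of all genes were called lower and 15.2% higher.

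**Figure D3:**
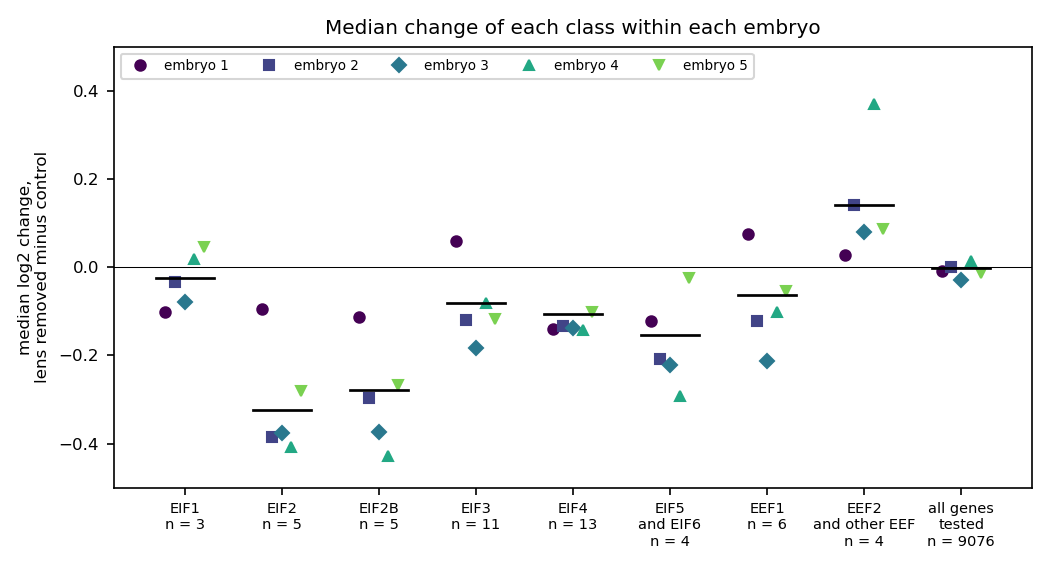
Median log2 change (lens removed minus control) of the tested genes of each class within each embryo (symbols), with the median of the fitted changes as a bar; n is the number of genes. Classes EIF2 and EIF2B lie lowest in embryos 2 to 4, embryo 1 is nearest to 0 or above it for EIF2, EIF2B, EIF3 and EEF1, and the medians of all genes tested lie between -0.028 and 0.013.

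Across the classes the embryos differed in size of change. The class EIF2 medians in embryos 1 to 5 were -0.096, -0.39, -0.37, -0.41 and -0.28, and those of class EIF2B were -0.11, -0.30, -0.37, -0.43 and -0.27. For class EIF3 they were 0.059, -0.12, -0.18, -0.082 and -0.12, and for class EEF1 0.075, -0.12, -0.21, -0.10 and -0.053. Of the 51 factors, 29 were lower on the operated side in embryo 1, 39 in embryo 2, 37 in embryo 3, 40 in embryo 4 and 35 in embryo 5. Over all genes tested the share lower was 51.8% in embryo 1 and ran from 48.4% in embryo 4 to 53.0% in embryo 3. With only genes averaging 50 or more, the share was 54.5%, 59.0%, 59.6%, 53.4% and 56.0% in embryos 1 to 5. Whether the lower count of factors in embryo 1 followed these shares was not tested.

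Of 13 genes named EIF4, 4 fell, 1 rose and 8 did not pass, with a median log2 change of -0.11. The class shares were 30.8% lower and 7.69% higher, against 12.3% and 10.6% of all genes tested. Counting only genes that averaged 50 or more, 16.9% were called lower and 8.7% higher. The cap-binding proteins moved in different directions. EIF4E2 encodes a relative of eIF4E that binds the cap without recruiting eIF4G and so represses translation. Its values were 147, 148, 154, 142 and 118 in the lens-removed retinas of embryos 1 to 5, against 162, 173, 202, 189 and 158 in their control retinas. Every operated retina was below every control (log2 change -0.32, SE 0.062, adjusted p = 0.0088), and the call was lost without embryo 4 (adjusted p = 0.056). EIF4E3, another cap-binding relative, was the 1 gene of the class that rose.

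EIF4E3 had 12.7, 13.7, 12.7, 14.97 and 11.8 in the lens-removed retinas of embryos 1 to 5, against 10.1, 11.7, 10.97, 10.6 and 7.72 in their control retinas. The groups did not overlap, at levels just above the limit for testing (log2 change 0.35, SE 0.092, adjusted p = 0.028). Its call was lost with no replicate block (adjusted p = 0.062), with quantile normalisation (0.13) and without embryo 2, 4 or 5 (0.070, 0.13 and 0.069). EIF4E, the main cap-binding protein, did not pass and stood at 262 ± 15.8 in lens-removed and 274 ± 24.7 in control retinas (log2 change -0.061, adjusted p = 0.59).

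EIF4EBP1 encodes an inhibitor that holds eIF4E until the mTOR kinase phosphorylates it. It had 168, 166, 168, 147 and 149 in the lens-removed retinas of embryos 1 to 5, against 186, 186, 213, 202 and 169 in their control retinas. All 5 embryos were lower with no overlap (log2 change -0.26, SE 0.063, adjusted p = 0.021). Its relative EIF4EBP2 was lower in 5 of 5 embryos as well but lay just outside the threshold, at 51.7 ± 6.28 in lens-removed and 61.1 ± 6.77 in control retinas (log2 change -0.24, adjusted p = 0.051). EIF4EBP2 was called lower with a mean filter of 50, with either rescaling (trimmed mean or quantile) and with the robust prior. The share of all genes called lower in those fits ran from 11.9% to 17.6%. EIF4ENIF1, which carries eIF4E into the nucleus and into processing bodies, stood at 76.5 ± 2.62 in lens-removed and 82.4 ± 4.57 in control retinas (log2 change -0.11, adjusted p = 0.24). The EIF4EBP1 call was lost without embryo 2, 3 or 4 (adjusted p = 0.063, 0.052 and 0.10).

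Among the helicases, EIF4A3, which works in the exon junction complex rather than in initiation, fell. Its values were 392, 359, 376, 322 and 316 in the lens-removed retinas of embryos 1 to 5, against 408, 407, 428, 408 and 393 in their control retinas. The groups did not overlap, and embryos 4 and 5 changed most and embryo 1 least (log2 change -0.22, SE 0.059, adjusted p = 0.030). EIF4A2, an initiation helicase, did not pass and stood at 949 ± 57.4 in lens-removed and 1046 ± 129 in control retinas (log2 change -0.13, adjusted p = 0.28). Of the 2 proteins that stimulate the helicase, EIF4H fell in 5 of 5 embryos to 539 ± 17.2 in lens-removed retinas, against 608 ± 20.9 in control retinas (log2 change -0.17, SE 0.053, adjusted p = 0.046). EIF4B was 129 ± 18.9 in lens-removed and 115 ± 25.2 in control retinas and did not pass (log2 change 0.18, adjusted p = 0.24). Quantile normalisation took the calls of EIF4A3 and EIF4H (adjusted p = 0.094 and 0.12), as did leaving out embryo 2, 3, 4 or 5 (EIF4A3 0.099, 0.058, 0.14 and 0.084; EIF4H 0.18, 0.14, 0.18 and 0.064).

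The scaffold genes did not pass and differed in spread. EIF4G2, a scaffold that lacks the eIF4E-binding site, was lower in 5 of 5 embryos and without overlap, but by little: 2386 ± 95.6 in lens-removed and 2551 ± 69.5 in control retinas (log2 change -0.097, adjusted p = 0.21). EIF4G1, the main scaffold of the cap-binding complex, had 134, 217, 291, 234 and 360.2 in the lens-removed retinas of embryos 1 to 5, against 253, 238, 175, 197 and 444 in their control retinas. Its spread was the widest of all 51 factors, 34.3% in the lens-removed and 40.8% in the control group (log2 change -0.076, adjusted p = 0.80), and its changes within embryos 1 to 5 were -0.92, -0.13, 0.73, 0.24 and -0.30. EIF4G3, its paralogue, followed the same order with -0.49, 0.037, 0.63, 0.32 and -0.10 (log2 change 0.080, adjusted p = 0.70).

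Of the 4 genes of class EIF5 and EIF6, 2 fell and 2 did not pass, and all 4 log2 changes were negative. The share lower was 50%, against 12.3% of all genes tested and 16.9% of those with a mean of at least 50. Whether the 2 that fell differed from the other 2 was not tested. EIF6 encodes a protein that binds the large ribosomal subunit and keeps it from joining too early, and it also acts in the nucleolus when that subunit is made. It had 141, 138, 141, 123 and 138 in the lens-removed retinas of embryos 1 to 5, against 159, 171, 186, 166 and 152 in their control retinas. All 5 embryos were lower, with no overlap (log2 change -0.29, SE 0.062, adjusted p = 0.013). EIF5B, the GTPase that joins the 2 subunits, had 316, 310.1, 314, 286 and 322 in the lens-removed retinas of embryos 1 to 5, against 332, 394, 393, 358 and 370.2 in their control retinas. It too was lower in every embryo with no overlap (log2 change -0.25, SE 0.059, adjusted p = 0.017). Both calls were lost without embryo 2 (adjusted p = 0.062 for EIF6 and 0.091 for EIF5B) and without embryo 4 (0.073 and 0.090).

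EIF5, which makes eIF2 release its GTP energy at the start codon, stood at 567 ± 50.8 in lens-removed and 588 ± 20.7 in control retinas (log2 change -0.055, adjusted p = 0.58). EIF5A2, a form of the hypusine-bearing factor that eases peptide bonds at stalling sequences, stood at 864 ± 139 in lens-removed and 890.3 ± 32.1 in control retinas (log2 change -0.057, adjusted p = 0.61). Its lens-removed values ran from 712 in embryo 1 to 1090.3 in embryo 5, a wider range than the 860.2 to 933 of the controls.

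In elongation, 0 of 6 tested EEF1 genes rose or fell, and 1 passed at an unadjusted p under 0.05 (EEF1AKMT1). Of all 9076 genes tested 7001 were not called, and 3399 had an unadjusted p under 0.05. EEF1A1 encodes the factor that delivers aminoacyl-tRNA to the ribosome. It had 7608, 7463, 7466, 7407 and 6776 in the lens-removed retinas of embryos 1 to 5, against 7115, 7745, 8119, 7959 and 6412 in their control retinas. Embryos 1 and 5 were higher and the other 3 lower on the operated side (log2 change -0.020, SE 0.066, adjusted p = 0.85), and its sign turned under quantile normalisation (log2 change 0.15, adjusted p = 0.13). The exchange factor genes EEF1B2 and EEF1D had log2 changes of -0.11 (adjusted p = 0.27) and -0.051 (adjusted p = 0.58). EEF1G, their structural partner, was at 14.3 ± 3.14 in lens-removed and 13.3 ± 1.79 in control retinas (log2 change 0.085, adjusted p = 0.73).

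Of the accessory genes of this class, EEF1E1, which belongs to the scaffold of tRNA synthetases, had a log2 change of -0.075 (adjusted p = 0.55). EEF1AKMT1, a lysine methyltransferase of eEF1A, was lower in 5 of 5 embryos at 21.8 ± 2.54 in lens-removed and 25.5 ± 5.22 in control retinas (log2 change -0.20, adjusted p = 0.11). EEF1A2, the form of eEF1A typical of neurons and muscle, fell just under the limit for testing with a mean of 9.76. It had 8.92, 10.3, 12.1, 12.5 and 14.8 in the lens-removed retinas of embryos 1 to 5, against 7.56, 6.77, 5.93, 8.30 and 10.4 in their control retinas. All 5 embryos were higher on the operated side, with overlap between the groups, and in the fit without a filter it was called higher (log2 change 0.54, adjusted p = 0.0092). In that fit 11.5% of all genes were called higher. Just inside the limit stood EIF4E3 with a mean of 11.7.

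EEF2, the translocase, was the second factor that rose. It had 1193, 1523, 1707, 1658 and 1939 in the lens-removed retinas of embryos 1 to 5, against 1255, 1115, 917, 1005 and 1648 in their control retinas. It was higher in embryos 2 to 5 and slightly lower in embryo 1, and the groups overlapped, with both retinas of embryo 5 high (log2 change 0.45, SE 0.12, adjusted p = 0.034). The call rested on the pairing and on single embryos: adjusted p was 0.082 with no replicate block, and 0.098, 0.068, 0.15 and 0.051 without embryo 2, 3, 4 and 5. Without embryo 1 it was 0.0052.

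EEF2K, the kinase that phosphorylates and halts eEF2, was higher in 5 of 5 embryos but did not pass, at 25.1 ± 2.41 in lens-removed and 22.1 ± 2.54 in control retinas (log2 change 0.18, adjusted p = 0.12). EEF2KMT, a methyltransferase of eEF2, had a log2 change of 0.11 (adjusted p = 0.42). EEFSEC, which delivers selenocysteine, stood at 39.7 ± 1.59 in lens-removed and 42.8 ± 3.35 in control retinas (log2 change -0.10, adjusted p = 0.35). In this class 1 of 4 rose and 0 fell, where 10.6% of all genes tested were called higher and 12.3% lower.

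**Figure D4:**
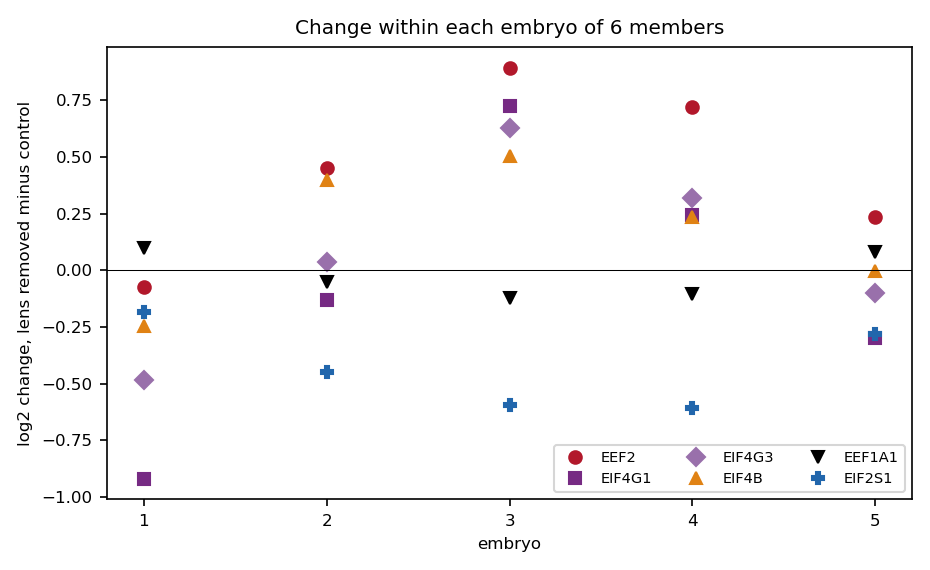
Log2 change (lens removed minus control) within each of the 5 embryos for EEF2, EIF4G1, EIF4G3, EIF4B, EEF1A1 and EIF2S1. EEF2, EIF4G1, EIF4G3 and EIF4B are highest in embryo 3 and lowest in embryo 1, whereas EIF2S1 is below 0 in all 5 embryos.

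Factors also differed in spread between embryos. Over the controls the median coefficient of variation was 9.2%, and 6 of 51 exceeded 20%: EIF4G1, EIF4G3, EEF2, EIF2B4, EIF4B and EEF1AKMT1. EEF2, EIF4G1, EIF4G3 and EIF4B, chosen after their values were seen, had their highest within-embryo change in embryo 3 and their lowest in embryo 1. The change of EEF2 was -0.073, 0.45, 0.89, 0.72 and 0.23 in embryos 1 to 5, and that of EIF4B -0.25, 0.40, 0.51, 0.23 and -0.0035. EIF2S1, with -0.18, -0.45, -0.59, -0.61 and -0.28, fell least in embryo 1 and most in embryos 3 and 4.

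Regulators of eIF2 were compared next, from a list of its kinases, phosphatase subunits and stress targets. Here 4 of 15 tested genes rose, 0 fell and 11 did not pass (median log2 change 0.060; 18 of 20 symbols searched were found). Of this list 26.7% were higher, against 10.6% of all genes tested. EIF2AK3, the kinase PERK that answers stress of the endoplasmic reticulum by phosphorylating the product of EIF2S1, rose: 66.8 ± 13.4 in lens-removed and 35.5 ± 7.47 in control retinas (log2 change 0.90, SE 0.13, adjusted p = 0.0028). EIF2AK2, the kinase PKR that senses double-stranded RNA, rose too, at 14.3 ± 1.95 in lens-removed and 10.7 ± 2.08 in control retinas (log2 change 0.40, adjusted p = 0.014). EIF2AK1 and EIF2AK4, the kinases for haem lack and amino acid lack, had log2 changes of -0.071 (adjusted p = 0.46) and 0.060 (adjusted p = 0.53). DDIT4, a stress gene whose product restrains mTOR, rose most among the 15 tested genes of the list, at 36.5 ± 11.8 in lens-removed and 11.3 ± 1.13 in control retinas (log2 change 1.56, adjusted p = 0.00018). ASNS, a stress target on the list, was the remaining gene of the 4. It stood at 121 ± 21.1 in lens-removed and 92.3 ± 6.41 in control retinas (log2 change 0.37, adjusted p = 0.033) and was higher in 5 of 5 embryos. ATF4, the transcription factor translated when eIF2 is phosphorylated, stood at 397 ± 29.4 in lens-removed and 399.5 ± 57.1 in control retinas (log2 change -0.0021, adjusted p = 0.99). Without embryo 2 and without embryo 4, 2 genes of this list were higher, when 4.83% and 4.26% of all genes were. The files hold transcript levels only, and the phosphorylation of eIF2 was not measured.

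In the list of cap-binding control and the mTOR pathway, 2 of 21 tested genes rose, 4 fell and 15 did not pass (median log2 change -0.033; 21 of 26 symbols searched were found). The shares, 9.52% higher and 19.0% lower, lay near the 10.6% and 12.3% of all genes tested (8.7% and 16.9% of those with a mean of at least 50). NCBP2 and NCBP1, the 2 chains of the nuclear cap-binding complex, fell: NCBP2 stood at 243 ± 11.1 in lens-removed and 298 ± 19.8 in control retinas (log2 change -0.29, adjusted p = 0.012), and NCBP1 at 194 ± 10.9 in lens-removed and 235 ± 11.5 in control retinas (log2 change -0.28, adjusted p = 0.017). PDCD4, an inhibitor of the eIF4A helicase, rose, at 260.2 ± 38.2 in lens-removed and 217 ± 28.1 in control retinas (log2 change 0.26, adjusted p = 0.016). The counts of this list were 0 higher and 0 lower without embryo 2 and without embryo 4, when 4.83% and 4.26% of all genes were higher and 4.15% and 3.32% lower.

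In a list drawn up for termination, recycling and rescue, 1 of 17 tested genes rose, 9 fell and 7 did not pass (median log2 change -0.21). Of 21 symbols searched 17 were found. Of this list 52.9% were lower, against 12.3% of all genes tested and 16.9% of those with a mean of at least 50. The list is broad, and ABCF2, DRG1, DRG2 and RIOK2, all called lower, are not core factors of these steps. The other genes called lower were ETF1, ABCE1, MCTS1, DENR and NEMF. ABCF2, an ATP-binding cassette protein, fell, at 205 ± 12.2 in lens-removed and 296 ± 10.99 in control retinas (log2 change -0.53, adjusted p = 0.00070), as did the ribosome-bound GTPase gene DRG2 at 75.7 ± 4.56 in lens-removed and 103 ± 4.50 in control retinas (log2 change -0.44, adjusted p = 0.0030). ETF1, the release factor that reads stop codons, fell, at 151 ± 11.01 in lens-removed and 188 ± 11.1 in control retinas (log2 change -0.32, adjusted p = 0.0073). Without embryo 2, 3 or 4, 3 genes of this list were lower, when 4.15%, 8.20% and 3.32% of all genes were. Of the enzymes that make hypusine on eIF5A or diphthamide on eEF2, 0 of 8 tested genes rose, 3 fell and 5 did not pass (median log2 change -0.20; 9 of 9 symbols searched were found). The 3, or 37.5% beside the 12.3% of all genes tested, were DNAJC24 (log2 change -0.37, adjusted p = 0.0089), DPH6 (log2 change -0.31, adjusted p = 0.034) and DPH1 (log2 change -0.29, adjusted p = 0.044), all of the diphthamide pathway, and the count was 1 without embryo 2 or 5 and 0 without embryo 4, when 4.15%, 9.17% and 3.32% of all genes were lower.

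Of the cytosolic aminoacyl-tRNA synthetases and their scaffold proteins, which charge the tRNAs that eEF1A delivers, 1 of 22 tested genes rose, 8 fell and 13 did not pass (median log2 change -0.16; 22 of 42 symbols searched were found). Of this list 36.4% were lower, against 12.3% of all genes tested and 16.9% of those with a mean of at least 50. The symbols searched include older and newer names of the same enzyme. FARSB, the beta chain of the phenylalanine enzyme, fell, at 119 ± 4.04 in lens-removed and 158 ± 16.2 in control retinas (log2 change -0.39, adjusted p = 0.0031), as did RARS, the arginine enzyme, at 172 ± 12.7 in lens-removed and 202 ± 17.0 in control retinas (log2 change -0.23, adjusted p = 0.025). GARS, the glycine enzyme, rose, at 285 ± 33.0 in lens-removed and 238 ± 13.1 in control retinas (log2 change 0.25, adjusted p = 0.018). The count of lower genes depended on the embryos and the model: it was 1 with no replicate block, 1 without embryo 2 or 4, 2 without embryo 3 and 5 without embryo 5. The share of all genes called lower in those fits was 8.63% with no replicate block, 4.15% and 3.32% without embryo 2 and 4, 8.20% without embryo 3 and 9.17% without embryo 5.

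Markers of other tissues were read in the same libraries, as summed normalised counts of the genes found. Retinal markers were present in all (6 of 7 found, 1162 to 1353 in lens-removed and 1009 to 1355 in control libraries). Pigment epithelium genes (12 of 14 found) summed to 136 to 228 in lens-removed and 120.2 to 555 in control libraries, periocular mesenchyme genes (9 of 14) to 66.5 to 96.8 in lens-removed and 62.0 to 228 in control libraries, and red cell genes (5 of 13) to 111 to 319 in lens-removed and 30.0 to 378 in control libraries. The red cell sum was higher on the operated side in embryos 1 to 4 and lower in embryo 5, and 0 of its 5 genes were called in the limma fit (4 at an unadjusted p under 0.05). The control of embryo 5 was the highest library for all 3; without that embryo the controls summed to 120.2 to 258, 62.0 to 120.5 and 30.0 to 51.7. In the fit without that embryo 11 factors were lower and 0 higher, when 9.17% of all genes tested were called lower and 8.65% higher. Endothelial genes (7 of 8) summed to 55.9 to 85.5 in lens-removed and 55.1 to 110.2 in control libraries, and lens genes (6 of 13) to 101 to 161 in lens-removed and 81.4 to 129 in control libraries. Surface ectoderm genes (4 of 8) summed to 40.3 to 46.5 in lens-removed and 42.7 to 56.3 in control libraries, and macrophage genes (3 of 5) to 4.60 to 6.89 in lens-removed and 3.33 to 8.41 in control libraries. Of the 6 retinal markers, all tested, 2 were called higher and 1 lower. Among 4 tested mesenchyme genes 2 were called lower, LUM being 1 of them. TYR of the pigment epithelium was called lower and CRYBA4 of the lens higher. Over all genes tested 10.6% were called higher and 12.3% lower. CRYBA4 alone made up 87.4 to 142 of the lens sum in lens-removed and 71.9 to 109 in control libraries. The other 5 lens genes found had means under 10 and were not tested. No marker found was at 0 in any library. Their part in the changes of the factors was not tested.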

How the data were processed

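The table holds a signal, normalised read counts, which the authors had scaled to nearly equal library totals. Per the submitters' processing notes the build was GRCg6a, and the tools listed, without role or order, are HISAT2 2.1.0, Subread 1.6.2, featureCounts, SAMtools 1.9, Trim Galore 0.6.4 and FastQC 0.11.8. The scaling, the annotation and the strand setting of the counting are not given in the sources used here. Paralogues such as EIF1 and EIF1B or EEF1A1 and EEF1A2 may share reads, so their split is uncertain. Low values were whole multiples of 1 step for 89.8% to 91.6% of values up to 400 reads (tolerance 0.01); whole reads were not recovered and no count model was used.

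The test was limma 3.58.1 (R 4.3.3) on log2(value + 1) over 9076 genes with a mean of at least 10, with an intensity trend and the embryo as a block, two-sided. The same code was tested on data simulated from the fitted model, with noise that was independent between genes. Such data cannot show how changes that genes share within an embryo affect the calls. The titles number the embryos, which pairs the eyes. Deviations of the 2 libraries of embryos 1 to 5 from their groups correlated across genes at 0.31, 0.76, 0.45, 0.68 and 0.59. The highest correlation of the lens-removed library with the control of another embryo was 0.48, 0.35, 0.39, 0.34 and 0.23. In embryo 1 this exceeded the correlation of its own pair. The labels give 1 batch number, 128, to every library. The single values of some marker genes are not reported here.

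The members, lists and alternatives were chosen with earlier results of these data known. Values in every library are given for up to 4 called members of a class in order of p, else the one of highest mean, and for some members beyond this rule chosen after their values were seen (EIF4G1, EEF1A2). Of each related list up to 3 called genes in order of p are named. Named beyond this rule are ASNS, EIF2AK1, EIF2AK4 and ATF4 and, from the termination list, DRG1, RIOK2, ABCE1, MCTS1, DENR and NEMF. The closing section also names ATF3, CHAC1, DDIT3 and DHPS beyond it. Of the members, 51 matched RefSeq symbols of GRCg7b and 1 a synonym. Alternatives were a pseudocount of 0.5 or 5, a mean filter of 50 or none, 2 rescalings (trimmed mean of log2 ratios to 1 library; quantiles), a fit with no block, a robust prior for the variance and 5 fits that each left out 1 embryo.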

Additional observations from a re-analysis of the deposited data

Results flagged for a closer look

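In 9 of 134 groups of 5 retinas checked, 1 retina stood far from the other 4 of its group, by a gap of more than 0.71 of the group's range (Dixon's criterion); chance alone marks about 1 group in 20. Of the 9, 4 were lens-removed retinas of embryo 5. EIF3B had a normalised count of 516 in the lens-removed retina of embryo 5, against 469.7 to 483 in the other 4. EIF3F had 172 in the lens-removed retina of embryo 5, against 147 to 152 in the other 4. EEF2K had 29.2 in the lens-removed retina of embryo 5, against 22.8 to 24.7 in the other 4, and EEF1A1 was low at 6776 in the lens-removed retina of embryo 5, against 7407 to 7608 in the other 4. EIF4A2 stood at 1052 in the lens-removed retina of embryo 1, against 921 to 928 in the other 4. DPH6 had 30.9 in the lens-removed retina of embryo 1, against 24.1 to 26.0 in the other 4. EIF6 was lowest at 123 in the lens-removed retina of embryo 4, against 138 to 141 in the other 4. The EIF6 call was lost without embryo 4 (limma adjusted p = 0.073) and also without embryo 2, when 3.32% and 4.15% of all genes were called lower. With 1 embryo left out its log2 change was -0.33 to -0.25. Whether the low value carried the call was not tested. In the controls, PDCD4 stood at 168 in the control retina of embryo 5, against 224 to 238 in the other 4, and DRG2 at 94.7 in the control retina of embryo 1, against 104 to 105 in the other 4.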

How the results depend on the processing

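Of the 13 alternatives, pseudocounts of 0.5 and 5, no filter, trimmed mean rescaling, and the robust prior left the 14 lower and 2 higher factors called, and added at most 2 lower and 1 higher. Leaving out 1 embryo mattered most: it gave 5 to 20 lower and 0 to 3 higher factors, and 301 to 1468 lower and 387 to 1378 higher genes over the table, against 1112 and 963 with all embryos; the fits had fewer samples. With no replicate block, 14 factors were lower, 13 of them shared with the paired fit, and 0 were higher. The block changed the calls of EIF2B3, EIF1AY, EIF4E3 and EEF2 and no other factor's. In that fit 8.63% of all genes tested were lower and 7.72% higher, and with quantile normalisation 11.9% and 9.45%. With quantile normalisation, 13 factors were lower and 1 was higher, EEF1A1 changed sign (log2 change 0.15), and the EIF4 median was -0.087; without 1 embryo this median was -0.14 to -0.095 and EEF1A1 was at -0.050 to 0.0048. With a mean of at least 50, 1 factor and 412 genes were higher, and the median of the EEF2 class, then EEF2 alone, was 0.45.

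In the related lists, higher counts with a mean of at least 50 were 1 for cap-binding control, 2 for the eIF2 kinases and stress targets and 0 for termination, and 0 diphthamide or hypusine enzymes were lower, as fewer genes were tested. In that fit 8.91% of all genes were higher and 17.6% lower. With no replicate block, cap-binding control had 0 higher and the synthetases 1 lower, when 7.72% of all genes were higher and 8.63% lower. With quantile normalisation the synthetases had 4 lower, when 11.9% of all genes were. Leaving out 1 embryo gave cap-binding control 0 to 3 higher and 0 to 6 lower, and the synthetases 0 to 2 higher and 1 to 10 lower. It gave the eIF2 kinases and stress targets 2 to 4 higher and the hypusine and diphthamide enzymes 0 to 2 lower. The termination list had 0 to 2 higher and 3 to 9 lower. Over all genes the shares in those fits ran from 4.26% to 15.2% higher and from 3.32% to 16.2% lower. Why these counts changed was not tested beyond the smaller number of samples or genes. The values of the low members EIF4E3 and EEF1A2 lie near 10, which would rest on 187 to 260.1 reads if the spacing of low values stands for 1 read. The effect of depth on their changes was not tested.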

Other observations

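Some genes of the related lists had a mean under 10 and were not tested in the main fit. ATF3, a transcription factor induced when eIF2 is phosphorylated and by injury, stood at 16.1 ± 3.12 in lens-removed and 3.16 ± 0.642 in control retinas. CHAC1, a glutathione-degrading enzyme induced by ATF4, stood at 6.22 ± 1.80 in lens-removed and 1.62 ± 0.490 in control retinas. In the fit without a filter both were called higher (log2 changes 2.04 and 1.45, limma adjusted p = 5.7e-05 and 0.00019). Of all 12464 genes in that fit 11.5% were called higher and 10.1% lower. DDIT3, another target, was at 3.62 ± 0.780 in lens-removed and 2.74 ± 0.503 in control retinas (adjusted p = 0.10 in that fit). DHPS, the first enzyme of hypusine synthesis, was at 6.05 ± 0.296 in lens-removed and 7.71 ± 0.721 in control retinas and was called lower there (adjusted p = 0.044). These 4 are all the genes found of the related lists that had a mean under 10. They were named after their values were seen.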
